A study of Homo sapiens with 18 samples.

Results

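The stretch studied here is the later portion of the 5′ domain of human 18S rRNA, taken as nucleotides 401 to 670 of the deposited files, where position 1 is the 5′ end. It is bounded by index, and the bounds use no measured value. It holds 270 of the 791 nucleotides read with primer set 3 and of the 1816 distinct nucleotides read in the whole series, and its last 57 nucleotides, 614 to 670, were also read with primer set 2. The cells were MDA-MB-231, an established human breast cancer line, carrying either a scrambled control, called SCR, or 1 of 2 knockdowns labelled FBL1 and FBL2. The design text writes KD1 and KD2, and the labels do not spell out what FBL stands for. The series title concerns fibrillarin, and the lines are read here as fibrillarin knockdowns. Each line was treated for 15 min at 37 °C with 2A3, or with DMSO as background, and there was 1 library per line, reagent and primer set. Wells were seeded in duplicate, and the sources used here do not say if both wells went into 1 library. No library measures how much fibrillarin the knockdowns retained. A single library per group allows no test, so no p-value is given and differences are described by size.

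2A3 acylates the 2′-hydroxyl of nucleotides whose sugar is free to move, so paired or tightly packed nucleotides usually react little and flexible loops react more. Fibrillarin is the methyltransferase that box C/D small nucleolar RNAs guide to rRNA, where it places a methyl group on the 2′-hydroxyl. A nucleotide methylated there has no free 2′-hydroxyl for the reagent. Helix 16, helix 17 and helix 18 of the small subunit lie in this stretch. Helix 16 stands out at the shoulder of the subunit, near the path by which mRNA enters. Helix 18 folds into a pseudoknot whose loop reaches the decoding centre. The stretch begins upstream of these helices.

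The sequence is shown because methylation sites and reactive nucleotides are located on it. It is read from the deposited files, 5′ to 3′ in 3 runs of 90 nucleotides, and capitals mark the 14 listed 2′-O-methylation sites.
Nucleotides 401 to 490: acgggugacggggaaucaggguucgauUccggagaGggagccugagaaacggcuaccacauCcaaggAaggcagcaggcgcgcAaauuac
Nucleotides 491 to 580: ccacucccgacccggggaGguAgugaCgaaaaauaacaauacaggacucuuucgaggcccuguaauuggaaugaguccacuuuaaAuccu
Nucleotides 581 to 670: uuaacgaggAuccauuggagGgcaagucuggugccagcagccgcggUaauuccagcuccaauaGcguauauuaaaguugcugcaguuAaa
In order, the sites are Um428, Gm436, Cm462, Am468, Am484, Gm509, Am512, Cm517, Am576, Am590, Gm601, Um627, Gm644 and Am668, where m marks the methyl group. All 14 had the listed base in the files. The list comes from general knowledge of human 18S rRNA, and methylation itself was not measured by these libraries.

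Reactivity is the percent of reads with an event at a nucleotide, and signal is the 2A3 reactivity minus the DMSO reactivity of the same line. Depth over the stretch ran from 179666 to 459122 reads per nucleotide with primer set 3 and from 363617 to 644730 with primer set 2. At a reactivity of 1% the counting error at median depth was 0.0148% to 0.0233% with primer set 3. The deposited values are rounded to steps of 0.1%, so the largest rounding error, 0.05%, exceeds the counting error for most nucleotides. Errors after ± are the deposited counting errors of 1 library, not a spread between replicates. The reads are PCR products for which no molecular identifiers are described, so they may repeat a molecule, and these errors cover counting only.

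Compared with the rest of primer set 3, this stretch had few strongly reactive nucleotides. The median signal was 0.1% in both parts in SCR and in FBL2, and 0.1% against 0.2% for the rest in FBL1. Mean signal of the stretch was 0.251% of reads in the SCR line, 0.370% in the FBL1 line and 0.296% in the FBL2 line. Over the other 521 nucleotides of primer set 3 it was 0.721%, 0.931% and 0.791%, so the stretch carried 0.348-fold, 0.398-fold and 0.374-fold the mean of the rest. The parts on either side were both more reactive, with SCR means of 0.741% over nucleotides 25 to 400 and 0.669% over nucleotides 671 to 815. In SCR, 12 of the 270 nucleotides reached a signal of 1%, which is 4.44%, against 15.4% of the rest. In FBL1 15 did and in FBL2 14. Rounded 2A3 and DMSO values were equal at 95 nucleotides in the SCR line, 66 in the FBL1 line and 83 in the FBL2 line. The 12 reactive nucleotides carried 61.3% of the summed SCR signal, and C543, U541 and A555 alone carried 31.5%. Mean signal relative to SCR was 1.48-fold in FBL1 and 1.18-fold in FBL2. Without G420, the nucleotide that changed most, these ratios were 1.39 and 1.17, against 1.29 and 1.10 over the rest of the primer set. The higher overall signal of the knockdown libraries was thus also seen outside the stretch.

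**Figure D1:**
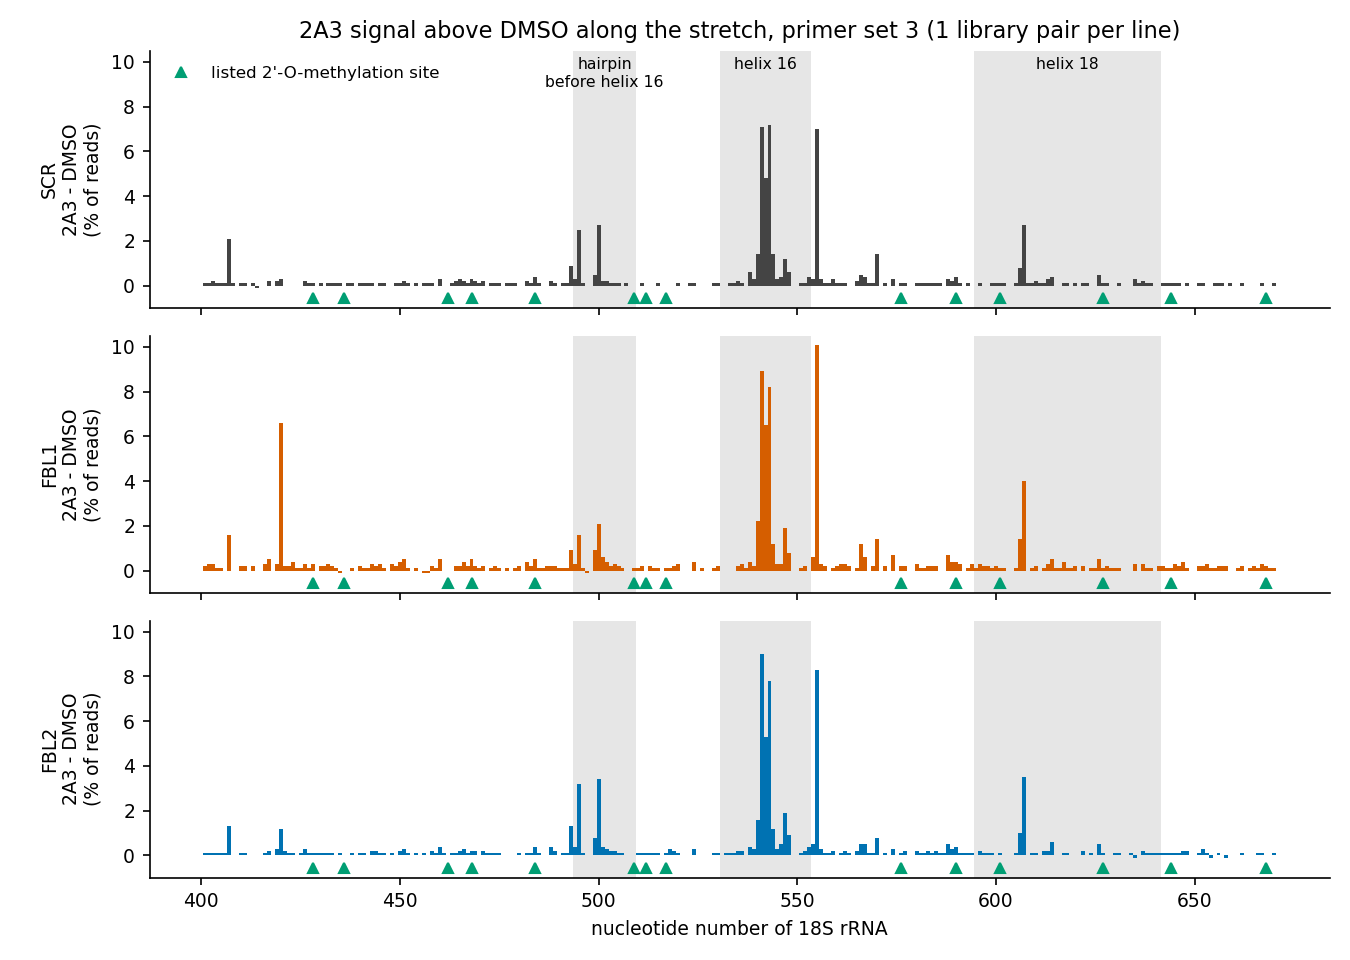
Signal above DMSO in percent of reads at each of the 270 nucleotides, 1 panel per line, from 1 library pair each; triangles mark the 14 listed 2′-O-methylation sites and grey bands the hairpin before helix 16, helix 16 and helix 18. Signal is concentrated in the helix 16 loop and at nucleotide 555 in all 3 lines, nucleotide 420 stands out in FBL1, and most of helix 18 lies near 0.

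Signal was spread unevenly along the stretch. In windows of 30 nucleotides, the highest SCR mean was 0.873%, over nucleotides 521 to 550, which hold the helix 16 loop, with 1.08% in FBL1 and 1.01% in FBL2. The next was 0.413% over the 30 nucleotides that follow, with 0.590% and 0.457%. The lowest was 0.05% over nucleotides 641 to 670, with 0.150% in FBL1 and 0.0600% in FBL2. In that last window no nucleotide reached 1% in any line. By base, uridines had the highest mean signal, at 0.442% in the SCR line, 0.623% in the FBL1 line and 0.551% in the FBL2 line. Adenosines had 0.212%, 0.308% and 0.255%, and cytidines had 0.217%, 0.270% and 0.243%. Guanosines had 0.186%, 0.342% and 0.204%, and without G420 their FBL1 mean was 0.259%. The SCR median was 0.1% for each base, and 5 of the 53 uridines reached 1% in SCR. The means by base thus rest largely on a few reactive nucleotides.

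Helix 16 held the most reactive loop. Its hairpin is shown because most of its reactive nucleotides fall where the sequence leaves bases unpaired; capitals mark nucleotides with an SCR signal of at least 1%.
Nucleotides 531 to 556: acaggacucUUUCGagGcccuguaAu
Nucleotides 531 to 535 are complementary to 549 to 553 in 5 of 5 pairs, and 537 to 539 to 544 to 546 in 3 of 3, so that U540, U541, U542 and C543 form the loop. The 16 nucleotides in these strands had a mean signal of 0.250% in the SCR line, 0.188% in the FBL1 line and 0.244% in the FBL2 line. The 7 others within the hairpin had 3.2%, 4.11% and 3.81%. The unpaired nucleotides thus had the higher mean in each line.

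Within the loop, U541 had a 2A3 reactivity of 7.1% ± 0.0592 in the SCR line, 9.0% ± 0.0699 in the FBL1 line and 9.0% ± 0.0673 in the FBL2 line, over DMSO values of at most 0.1%. U542 had 4.9% ± 0.0492, 6.6% ± 0.0598 and 5.4% ± 0.0521, and C543 had 7.4% ± 0.0604, 8.4% ± 0.0675 and 8.0% ± 0.0634. Both knockdowns were above SCR at these nucleotides before scaling, by 1.25-fold and 1.27-fold in signal at U541 and by 1.14-fold and 1.08-fold at C543. This direction depended on the scaling. In the normalized units defined in the next paragraph C543 changed by -0.0427 in FBL1 and 0.0873 in FBL2. It passed as a fall with the 90th percentile, box-plot scaling and scaling on the stretch alone, at mean changes of -0.376, -3.94 and -2.59 units. Each scaling has its own unit, which in SCR was 1.3%, 0.370% and 0.636% of reads in that order, against 3.00% for the normalized unit. Sizes in units therefore do not compare between scalings, and a threshold in units is a smaller percent of reads there. U541 and U542 also passed as falls with scaling on the stretch alone, at -1.37 and -1.15 units, and U542 with box-plot scaling, at -1.62. The first loop nucleotide, U540, was less reactive, at 1.5%, 2.4% and 1.8% in SCR, FBL1 and FBL2. G544, which closes the loop, was lower in both knockdowns, at 1.5% in SCR and 1.3% in each. G547, on the 3′ side between the paired strands, had 1.3% ± 0.0253 in SCR and 2.0% in both knockdowns, with errors of 0.0329 and 0.0317. Before scaling, neighbours in 1 hairpin thus lay on different sides of SCR.

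To compare lines beyond their overall signal, each library pair was divided by its average signal from the 90th to the 98th percentile of the whole primer set, which is 1 normalized unit. This unit was 3.00% of reads in the SCR line, 3.48% in the FBL1 line and 3.13% in the FBL2 line, so scaling lowered FBL1 by 0.21 and FBL2 by 0.06 on the log2 scale relative to SCR. A nucleotide was called risen or fallen when both knockdowns differed from SCR by at least 0.3 units in the same direction and by more than the summed counting errors taken at a 95% level. This is a rule of size, and both knockdown differences use the same SCR libraries. It called 1 rise and 0 falls among the 270 nucleotides. Over all 791 nucleotides of primer set 3 it called 9 rises, or 1.14%, and 8 falls, or 1.01%. Among nucleotides with an SCR signal of at least 1%, it called 1 rise of 12 here against 8 rises and 8 falls of 80 in the rest. The stretch's share of calls, 0.370%, lay below the background, and it also held fewer nucleotides with the signal needed to reach 0.3 units. In FBL1 alone the rule called 2 rises, G420 and A555, and 1 fall, U495, against 2.28% and 1.39% of the primer set. In FBL2 alone it called 2 rises, U541 and A555, and 0 falls, against 1.26% and 1.01%.

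**Figure D2:**
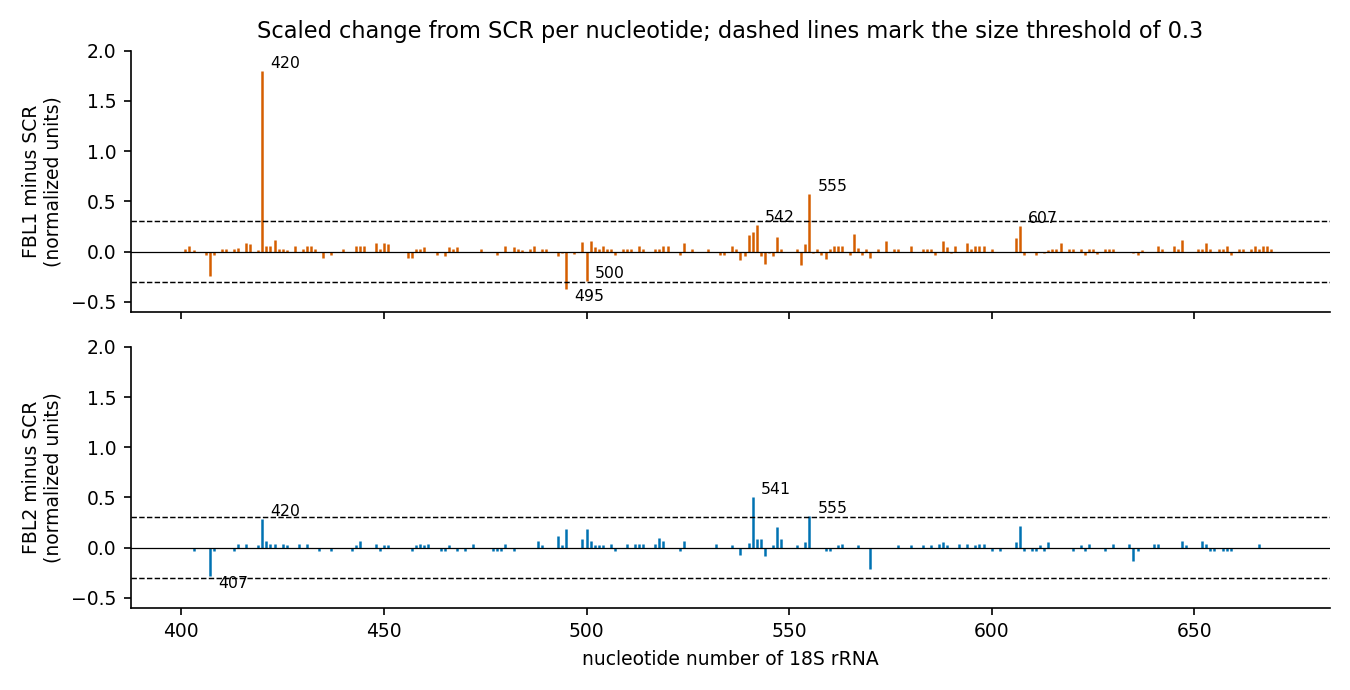
Knockdown minus SCR in normalized units at each nucleotide, FBL1 above and FBL2 below, from 1 library pair per line; dashed lines mark the size threshold of 0.3 units and numbers name nucleotides at least 0.25 units from SCR. With this scaling only nucleotide 555 lies beyond the upper line in both panels, whereas under box-plot scaling and under scaling on the stretch alone its change lies below 0; nucleotide 420 passes in FBL1 and falls short at 0.283 units in FBL2.

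The rise called in both knockdowns was A555, an adenosine just past the 3′ strand of helix 16. Its 2A3 reactivity was 7.0% ± 0.0588 in the SCR line, 10.1% ± 0.0741 in the FBL1 line and 8.3% ± 0.0646 in the FBL2 line, over DMSO values listed at 0 in all 3 lines. The FBL1 and FBL2 signals were 1.44 and 1.19 times the SCR signal, and the scaled changes were 0.571 and 0.314 units. These ratios were close to those of the stretch mean without G420, 1.39 and 1.17. Over the rest of the primer set the ratios were 1.29 and 1.10. As a ratio, the rise at A555 was thus near that of the stretch mean. Among nucleotides of the primer set with an SCR signal of at least 1%, the median ratio was lower. It was 1.19 in FBL1 and 1.05 in FBL2. The FBL2 change lies just above the threshold. With the 90th percentile, median-ratio scaling or a sliding mean of 3 nucleotides A555 did not pass. Box-plot scaling and scaling on the stretch alone turned it into a fall, since those settings divide FBL1 by 1.55 and 1.56 times the SCR factor. The changes were -1.20 and -1.02 in the smaller units of those scalings. The direct observation is thus that A555 had more 2A3 events per read in both knockdowns, while the sign of its scaled change depended on the scaling.

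G420 had the largest change of the stretch and the largest difference between the knockdown lines. It is shown in its surroundings, with G420 in capitals, because its neighbours also rose in mean signal but by much less.
Nucleotides 410 to 430: ggggaaucagGguucgauucc
Its 2A3 reactivity was 0.4% ± 0.0136 in the SCR line, 6.7% ± 0.0571 in the FBL1 line and 1.3% ± 0.0246 in the FBL2 line, and its DMSO reactivity was 0.1% in all 3 lines. The FBL1 and FBL2 values were 16.8-fold and 3.25-fold the SCR value, and rounding could lower these ratios to 14.8 and 2.78. Among the 20 nearest neighbours the highest 2A3 value was 0.7% in the SCR line, 1.0% in the FBL1 line and 0.8% in the FBL2 line, and their mean signal was 0.055%, 0.18% and 0.1%. The scaled changes were 1.80 units in FBL1 and 0.283 in FBL2, so G420 missed the threshold in FBL2 and was not called. Its mean change over both knockdowns was above 0 under the 10 alternatives tried for single nucleotides, and 5 of them called it as a rise. FBL1 exceeded FBL2 by 1.52 units there, and the next largest FBL1 minus FBL2 difference was -0.561 units, at U495. G420 lies 8 nucleotides from Um428, outside the part read by primer set 2, so it was seen in 1 amplicon only.

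The hairpin before helix 16 held both nucleotides of the stretch at which the knockdown lines lay at least 0.1 units from SCR on opposite sides. Nucleotides 494 to 498 are complementary to 505 to 509 in 5 of 5 pairs; capitals mark an SCR signal of at least 1%.
Nucleotides 494 to 509: cUcccgAcccggggag
U495, in the 5′ strand, had a 2A3 reactivity of 2.6% ± 0.0349 in the SCR line, 1.7% ± 0.0298 in the FBL1 line and 3.3% ± 0.0395 in the FBL2 line. A500, in the loop, had 2.7% ± 0.0356, 2.2% ± 0.0339 and 3.5% ± 0.0408. Both were lower in FBL1 and higher in FBL2 than in SCR, before scaling and in the normalized units above. In signal, U495 was 0.640-fold and 1.28-fold that of SCR, and A500 was 0.778-fold and 1.26-fold. Scaling on the stretch alone gives FBL2 a factor 1.33 times that of SCR, which puts FBL2 below SCR at both nucleotides, and box-plot scaling does so at A500. DMSO values at both were at most 0.1% in each line. The last nucleotide of the 3′ strand is Gm509, whose 2A3 value was 0.1% in the SCR line, 0.2% in the FBL1 line and 0.1% in the FBL2 line.

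No nucleotide passed the rule downward in both knockdowns. G407, the farthest below SCR and near the 5′ end of the stretch, had a 2A3 reactivity of 2.3% ± 0.0328 in the SCR line, 1.7% ± 0.0288 in the FBL1 line and 1.5% ± 0.0266 in the FBL2 line. Its scaled changes of -0.240 and -0.286 units missed the threshold, and its mean change was below 0 under the same 10 alternatives, 4 of which called it as a fall. C570, between helices 16 and 18, had the next lowest mean change, -0.138 units. With 2A3 it had 1.7% (SCR), 2.3% (FBL1) and 1.4% (FBL2), and its DMSO values were 0.3% ± 0.00926, 0.9% ± 0.0158 and 0.6% ± 0.0114. FBL1 was higher by 0.6% of reads in both reagents, so its signal equalled that of SCR. This was the largest DMSO difference between lines in the stretch. DMSO values equalled those of SCR at 227 of the 270 nucleotides in FBL1 and 215 in FBL2, and differed by 0.2% or more at 3 and 4. The next lowest were G544, U495, U538 and G635, with mean changes between -0.103 and -0.0729 units.

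**Figure D3:**
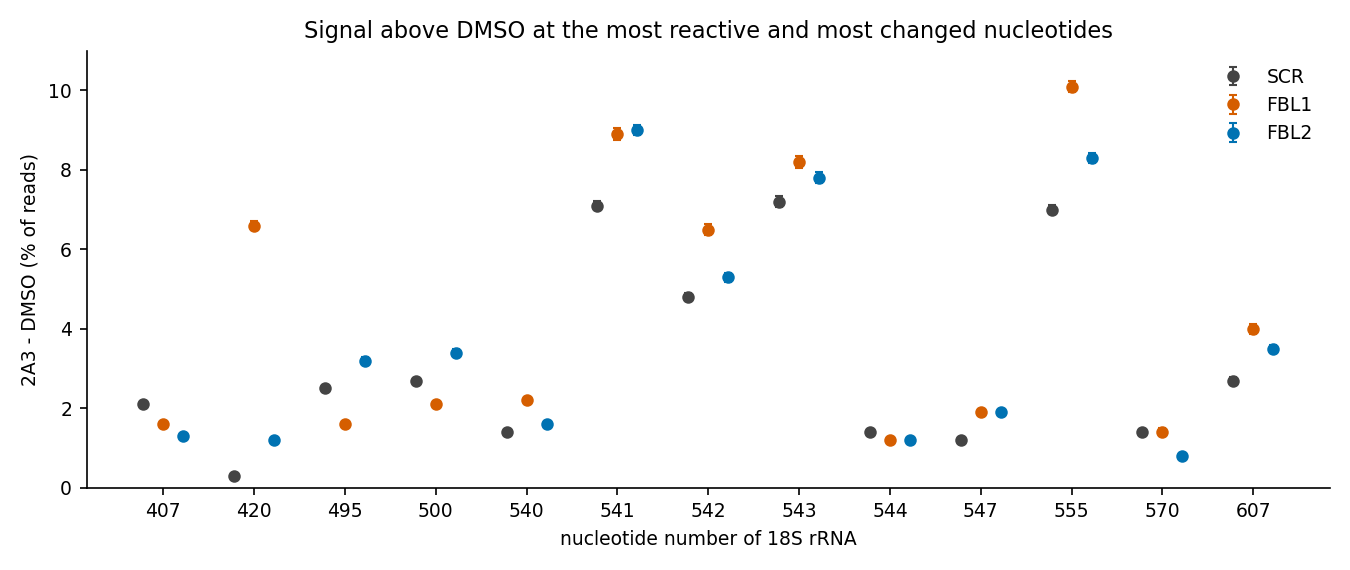
Signal above DMSO in percent of reads at the most reactive and most changed nucleotides of the stretch, for SCR, FBL1 and FBL2, 1 library pair per line; bars are the summed counting errors taken at a 95% level and are mostly smaller than the points. Nucleotides 541, 542, 543, 555 and 607 lie above SCR in both knockdowns before scaling, a direction that turns at each with scaling on the stretch alone. Nucleotides 420, 540 and 547 also lie above in both, and 420 and 547 stay above with that scaling. Before scaling 407 and 544 lie below in both, and 495 and 500 on either side.

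Helix 18 was nearly silent in all 3 lines. It is shown because its single reactive nucleotide with an SCR signal of at least 1%, in capitals, lies outside the strands that pair.
Nucleotides 595 to 641: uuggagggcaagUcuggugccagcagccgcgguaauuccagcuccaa
The outer stem pairs 595 to 600 with 636 to 641 in 6 of 6 pairs and the inner stem 608 to 611 with 632 to 635 in 4 of 4. The pseudoknot joins 601 to 603 with 620 to 622 in 3 of 3, and 617 to 618 faces 623 to 624 in 2 of 2. The 30 nucleotides of these strands had a mean signal of 0.0767% in the SCR line, 0.120% in the FBL1 line and 0.0633% in the FBL2 line, with no value above 0.4%. The 17 others had 0.306%, 0.465% and 0.376%. Most of that came from G606 and U607, in the link between the pseudoknot and the inner stem. Without them the other 15 had 0.113%, 0.167% and 0.127%. In the conserved loop, nucleotides 612 to 629, the highest signal was 0.5% in the SCR line, 0.5% in the FBL1 line and 0.6% in the FBL2 line. Apart from that link, no nucleotide of the helix reached 1% in any line.

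U607 had the fourth highest mean change of the stretch. Its 2A3 reactivity was 2.9% ± 0.0381 in the SCR line, 4.4% ± 0.0492 in the FBL1 line and 3.8% ± 0.0441 in the FBL2 line, over DMSO values of 0.2%, 0.4% and 0.3%. In FBL1 and FBL2 the signal was 1.48 and 1.30 times the SCR signal, and its scaled changes were 0.250 and 0.216 units, below the threshold. Under box-plot scaling and under scaling on the stretch alone its mean change lay below 0. The neighbouring G606 had 0.8% ± 0.0200, 1.5% ± 0.0287 and 1.1% ± 0.0237, in the same order of lines. U607 lies 6 nucleotides from Gm601, which is in the pseudoknot and had a 2A3 value of 0.1% in every line. G626, in the loop, had a 2A3 value of 0.5% in every line with DMSO listed at 0, and the adjacent Um627 had 0.3% over 0.2% in every line. No change was thus seen at G626 or Um627 with this primer set at steps of 0.1%.

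In the normalized units above, the larger changes came at isolated nucleotides. In both knockdowns together, 5 nucleotides were at least 0.1 units above SCR, namely G420, U541, G547, A555 and U607, and 1 was as far below, G407. They formed 0 runs of 3 or more neighbours. Other scalings did give runs, and only those in and next to the helix 16 loop are named here. Runs elsewhere were not counted under other scalings. Without scaling U541, U542 and C543 were each at least 0.1 units above SCR in both knockdowns. With scaling on the stretch alone U541, U542, C543 and G544 were called as falls, and with box-plot scaling U542, C543 and G544 were. In percent of reads, signal was above SCR at 135 nucleotides in FBL1 and 85 in FBL2, equal at 103 and 145, and below at 32 and 40. At 189 of the 270 nucleotides both knockdowns were within 0.1% of SCR.

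The 14 listed 2′-O-methylation sites were compared with the rest of the stretch, since fibrillarin is the enzyme that modifies such sites. The mean of both knockdown changes was taken at each nucleotide. Its median over the sites was 0.00304 units, against 0.00986 over the 270 nucleotides and 0 over the primer set. At the sites this mean ran from -0.0121 to 0.0303 units. Changes in single knockdowns ran from -0.0363 units, at Am468 in FBL2, to 0.0576, at Am668 in FBL1. Of the 14, 0 passed the size rule, which called 1.14% of the primer set as rises and 1.01% as falls. A count of 0 among so few says nothing particular about the sites. Falls could also hardly be called there, since the threshold was 0.899% of reads in SCR and SCR signal at the sites was at most 0.4%. Signal in FBL1 was above SCR at 7 sites and equal at 7, and in FBL2 it was above at 2, equal at 11 and below at 1. Both knockdowns were within 0.1% of SCR at 11 sites. Signal at the sites was 0% to 0.4% in the SCR line, 0% to 0.5% in the FBL1 line and 0% to 0.4% in the FBL2 line. In SCR, FBL1 and FBL2, 2A3 values were 0.8%, 1.0% and 0.7% at Am468 and 1.0%, 1.1% and 1.0% at Am484. They were 1.0%, 0.9% and 0.8% at Am576 and 1.0%, 1.0% and 0.9% at Am590. The 54 nucleotides within 2 positions of a site had mean signals of 0.0963%, 0.169% and 0.115%, and none reached 1% in any line. Of these 54, 0 passed the rule, which is likewise near the background. All differences at the sites were within a few rounding steps, so small changes could hardly be told from rounding with primer set 3 alone. At Am668 the FBL1 signal was 0.2% of reads against 0% in SCR, and primer set 2 gave the same values.

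What set some sites apart was the DMSO background. The 6 listed adenosines, Am468, Am484, Am512, Am576, Am590 and Am668, had DMSO reactivities of 0.5% to 1.3% in SCR with a median of 0.75%. The 72 other adenosines had 0% to 0.6% with a median of 0.1%, and 3 of them reached 0.4%, against 6 of 6 listed ones. The 8 listed sites of other bases had 0% to 0.2% with a median of 0.1%. The 184 other nucleotides that are no adenosine had the same median and reached 1.2%, with 7 of them at 0.4% or more. Am512 had the highest DMSO value of the stretch, 1.3% in SCR and 1.2% in each knockdown, and its 2A3 values were 1.3%, 1.2% and 1.3%. Its signal was thus 0% in SCR and FBL1 and 0.1% in FBL2. This comparison was chosen after the values were seen.

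DMSO values at the listed adenosines were equal to or below SCR in both knockdowns. Am576 had 0.9% in SCR and 0.7% in each knockdown, and Am668 had 1.0% and 0.9% in each. Am590 had 0.6%, 0.6% and 0.5%, while Am468 at 0.5% and Am484 at 0.6% had the same value in every line. In FBL1 3 of the 6 were below SCR and in FBL2 4, with 0 above in either. Summed over the 6, DMSO reactivity was 4.9% in the SCR line, 4.5% in the FBL1 line and 4.4% in the FBL2 line. Over the stretch as a whole, FBL1 was above SCR at 34 nucleotides and below at 9, and FBL2 above at 43 and below at 12. Differences at single sites are 1 or 2 rounding steps. Of the 10 other nucleotides with at least 0.4% DMSO in SCR, G518 and A519 lie within 2 positions of a listed site, next to Cm517, with 1.2% and 0.6%, and 8 lie farther away. At these 10, FBL1 was below SCR at 3 and above at 1, and FBL2 below at 4 and above at 2. Summed over these 10, DMSO reactivity was 5.6% in the SCR line and 5.4% in each knockdown. Lower DMSO values in the knockdowns were thus also seen at unlisted nucleotides with a high SCR value. These 10 were picked by their SCR value, which by itself favours lower values in the other lines.

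**Figure D4:**
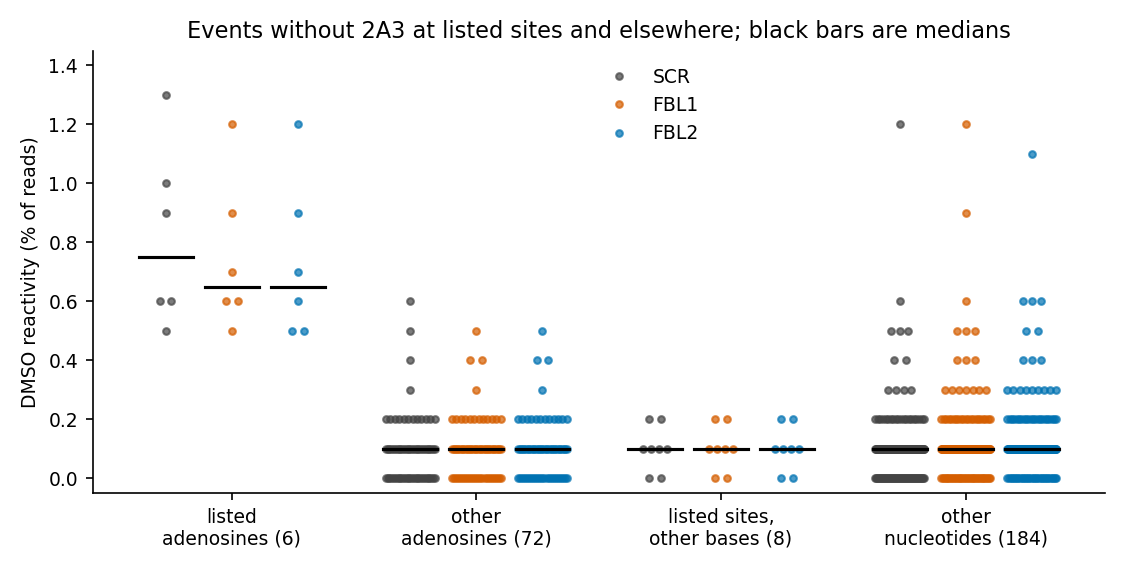
DMSO reactivity in percent of reads at the listed adenosines, the other adenosines, the listed sites of other bases and the other nucleotides of the stretch, with the number of nucleotides in brackets; each point is 1 nucleotide in 1 library and black bars are medians. The 6 listed adenosines lie at 0.5% or above in all 3 lines, while the other 3 classes have medians of 0.1%.

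Nucleotides 614 to 670 were read from 2 amplicons in each line, with primer sets 2 and 3. These are not biological replicates. Mean signal was 0.0702% in the SCR line, 0.146% in the FBL1 line and 0.0737% in the FBL2 line with primer set 3, and 0.0825%, 0.160% and 0.118% with primer set 2. The amplicons agreed within 0.1% of reads at 55 of the 57 nucleotides in the SCR line, 50 in the FBL1 line and 49 in the FBL2 line, and nowhere differed by more than 0.3%. Across the 57 nucleotides r was 0.827, 0.763 and 0.709, a description over points that share a sequence and lie near the rounding step. For changes from SCR, r was 0.578 (FBL1) and 0.536 (FBL2). Primer set 2 called 0 rises and 0 falls among these 57, where over its 660 nucleotides it called 2.12% as rises and 1.97% as falls. The knockdowns taken singly also gave 0 calls here, where FBL1 alone gave 3.18% rises and 2.42% falls and FBL2 alone 2.27% and 1.97%. In SCR the threshold was 0.504% of reads with primer set 2 and 0.899% with primer set 3. The highest SCR signal among the 57 was 0.7% and 0.5%. Falls could thus hardly be called here, and the count of 0 falls says little.

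Both amplicons placed the largest change at the same nucleotide. In FBL1 it was U647, with 2A3 values of 0.1% in the SCR line, 0.5% in the FBL1 line and 0.3% in the FBL2 line with primer set 3, and of 0.2%, 0.6% and 0.4% with primer set 2, over 0.1% DMSO each time. In FBL2 it was G635, in the inner stem of helix 18. Its DMSO value was 0.1% in SCR and FBL1 and 0.3% in FBL2 with both primer sets, and its 2A3 values were 0.4%, 0.4% and 0.2% with primer set 3 and 0.4%, 0.4% and 0.3% with primer set 2. Am668 also gave the same order of DMSO values in both, at 1.0%, 0.9% and 0.9% with primer set 3 and 0.9%, 0.8% and 0.8% with primer set 2. The 2A3 values of Am668 in SCR, FBL1 and FBL2 were 1.0%, 1.1% and 0.9% (set 3) and 0.9%, 1.0% and 0.9% (set 2). Both amplicons thus put its signal at 0% in SCR and 0.2% in FBL1, a difference to which the lower DMSO value contributed. In FBL2 the signal was 0% (set 3) and 0.1% (set 2). These differences are 1 or 2 rounding steps. G626 had higher 2A3 values with primer set 2, at 0.7%, 0.8% and 0.8%, than the 0.5% of primer set 3.

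**Figure D5:**
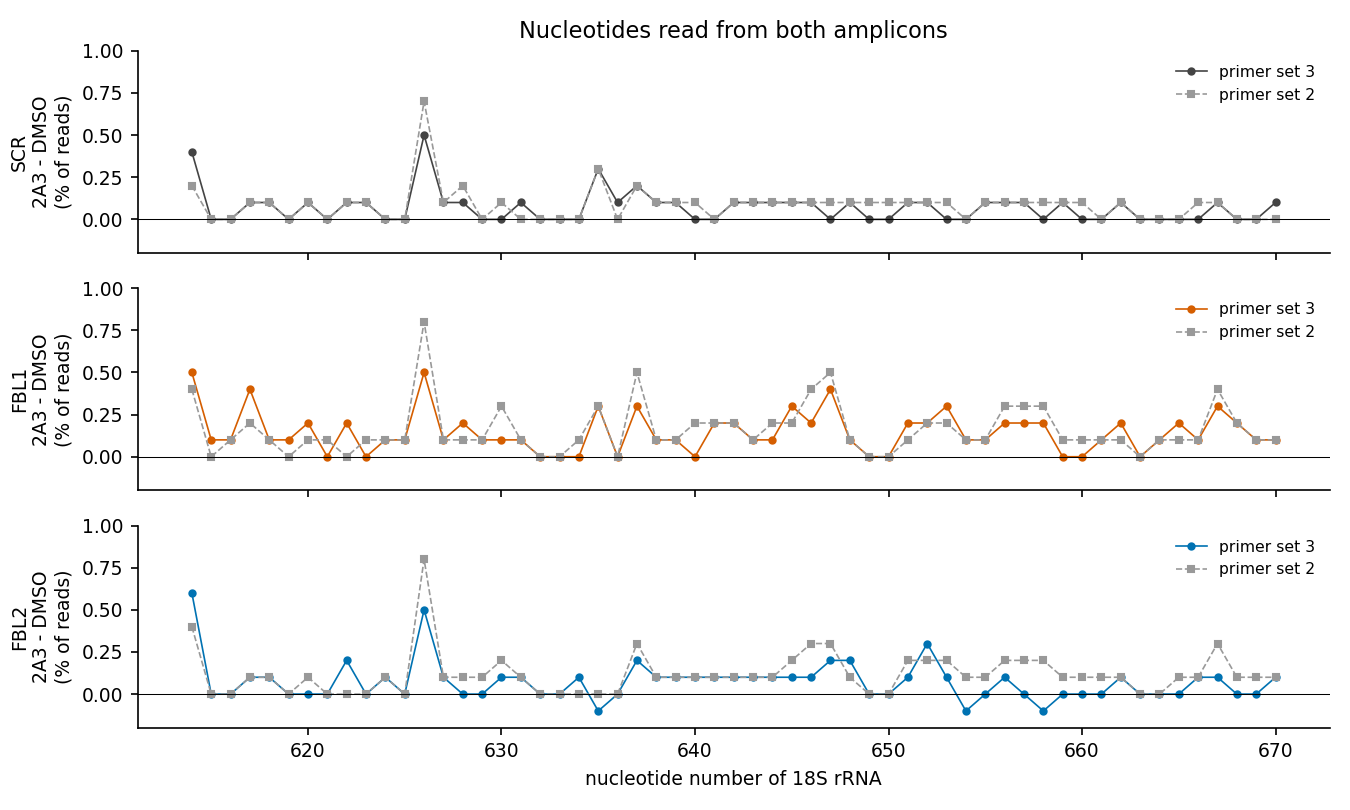
Signal above DMSO in percent of reads at the 57 nucleotides read from both amplicons, 1 panel per line, with primer set 3 in colour and primer set 2 in grey. All values lie between -0.1% and 0.8%, nucleotide 626 is highest with primer set 2 in each line, and the amplicons differ by at most 0.3%.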

How the data were processed

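Each of the 18 libraries was read from its own deposited table, and 12 were used for values here. Per the labels and the design text, RNA from probed cells was reverse transcribed and amplified with specific primers and sequenced by nanopore. Per the submitters' processing notes, Bowtie2 and SAMtools were used. No source used here gives the reference or the kind of event counted. Reactivity was deposited as a fraction of reads in 0.1% steps. The deposited coverage is the depth per position, and their error column is the root of reactivity divided by depth. The authors' own 2A3 minus DMSO difference was recomputed here, since not every file has it.

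Positions needed a depth of at least 100 reads. Signal, scaling and the size rule were computed over the whole primer set and are defined in the text. Paired strands were found by complementarity around short motifs, guided by the known fold of these helices. Nucleotides are named by rule: those that passed, the 6 largest rises and falls, the 8 most reactive in SCR, the highest DMSO value and the listed sites. U540, G606, G626, C501, U647, G518 and A519 were named after their values were seen. The stretch was proposed, and the lists and rules were chosen, with earlier results of these data known. Alternatives covered scaling, DMSO subtraction, smoothing, error, depth, threshold and the lines compared. Python 3.11.15, numpy 2.4.6, pandas 2.3.3 and matplotlib 3.10.9 were used.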

Additional observations from a re-analysis of the deposited data

Results flagged for a closer look

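At 2 nucleotides of the hairpin before helix 16 the knockdown lines lay on opposite sides of SCR, each by at least 0.1 normalized units and by more than the counting error. At U495 the change was -0.374 units in FBL1 and 0.187 in FBL2. At A500 it was -0.297 in FBL1 and 0.184 in FBL2. The difference between the knockdown lines was not tested, since each is 1 library pair. Next to A500, C501 changed by 0.106 units in FBL1 and 0.061 in FBL2.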

How the results depend on the processing

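No paired analysis was possible because a group is a single library, without a test. Against 1 rise and 0 falls, no scaling gave 3 rises, box-plot scaling 7 rises and 9 falls, scaling on the stretch alone 8 falls, the 90th percentile 2 falls, and 1 factor per base 2 rises and 1 fall. Median-ratio scaling, the sliding mean and a threshold of 0.5 each gave 0 rises, and a threshold of 0.2 gave 3 rises and 1 fall. FBL1 alone gave 2 rises and 1 fall and FBL2 alone 2 rises. FBL1 in the place of SCR gave 1 rise and 1 fall, and FBL2 in its place 0 rises and 1 fall. The threshold of 0.3 units was kept for each scaling, while the SCR unit was 3.00% of reads in the main setting. It was 1.3% with the 90th percentile, 0.370% with box-plot scaling and 0.636% with scaling on the stretch alone. Calls under these scalings thus needed smaller differences in percent of reads. A555, the rise reported, reversed to -1.20 units with box-plot scaling and -1.02 with scaling on the stretch alone. With the 90th percentile and with scaling on the stretch alone the 1 rise was G420, and with FBL1 in the place of SCR it was U495, not A555. No DMSO subtraction, added rounding error and a depth minimum of 1000 left both counts as reported.

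The median change at the listed sites was 0.0167 units without scaling. Without DMSO subtraction mean reactivity in SCR, FBL1 and FBL2 was 0.370%, 0.501% and 0.428%, and the median signal was 0.1% in each line. Without G420, an alternative chosen after seeing the data, the FBL1 mean was 0.347% and the FBL2 mean 0.293%. Without DMSO subtraction the helix 18 strands had 0.137%, 0.197% and 0.143%, and the other nucleotides of the helix 0.394%, 0.588% and 0.488%. In the overlap, r of the change without the 5 nucleotides at the end of primer set 2 was 0.606 (FBL1) and 0.510 (FBL2), and without scaling 0.524 (FBL2). Rounding to 0.1% limits what could be seen at most nucleotides, more than depth does.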
